A study of Homo sapiens with 18 samples.

Results

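The MYC, MAX and MXD network is a set of transcription factors that share the partner MAX or its relative MLX. Its 9 genes studied here, MYC, MAX, MXD1, MXD3, MXD4, MXI1, MNT, MLX and MGA, were taken by symbol from a table of RNA counts for 55766 genes, and all 9 were found. The cells were K562, an established human leukaemia line of erythroid and megakaryocytic character, carrying a B2M:tdTomato transgene in all groups. Untreated cells were compared with TALE silenced cells and dCas9 silenced cells. Both TALE and dCas9 can be programmed to bind a chosen DNA sequence, and were directed here to the promoter of B2M, which codes for the small subunit of MHC class I complexes. Treated cells were given 3 plasmids together, and each of these carried its own ATR (the labels do not expand the term, and name 1 of them as D3A-based), and the dCas9 cells also received a plasmid for a guide RNA. The design text describes both treatments as directed DNA methylation. RNA-seq and MeDIP-seq, which sequences DNA captured by an antibody against 5-methylcytosine, each had 3 samples per group, 18 samples in all. The time from treatment to collection, and whether the cells were 1 clone or a sorted pool, were not given in the sources used here. "Silenced" below is the average of both treated groups. None of the 9 genes was a target of the treatments, so the comparisons show how a network outside the target stood after it was silenced.

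MYC binds DNA only as a dimer with MAX, at E-boxes with the core CACGTG, and its dimers activate genes of ribosome building, metabolism and the cell cycle. The MXD proteins, MXI1 and MNT compete for MAX, bind the same sites and bring in the SIN3-HDAC corepressor, so they act as antagonists of MYC. MLX pairs with the glucose-sensing factors MLXIP (MondoA) and MLXIPL (ChREBP) and with some of the antagonists, and MGA is a MAX partner that also carries a T-box domain and belongs to a variant Polycomb complex. MYC is a known dependency of leukaemia lines.

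RNA libraries held 8460076 to 12050554 counts and MeDIP libraries 2529729 to 4492751. The targeted gene followed the labels. B2M had 48 to 79 counts in the untreated and 2 to 7 in the silenced libraries, and the entry B2M_tomato had 3115 to 4109 and 128 to 205. The labelled cell type was checked on 8 markers of K562 (GATA1, TAL1, KLF1, HBG1, HBG2, HBZ, HBE1 and TFRC), all of which were present in every library. Their levels ran from 42.5 CPM (counts scaled to the size of the library) for TAL1 to 4732 CPM for HBG2. Of 10 markers of other cell types, 5 reached 10 counts in some library, with summed levels of 141.1 to 160.1, 146.5 to 170.8 and 131.2 to 163 CPM in untreated, TALE and dCas9 libraries. CD79A and CD14 never passed 3 counts. EPCAM, with 84.8 to 123 CPM, and CD3D and LYZ, with 15.5 to 27.8 CPM, made up most of that sum. Genes of the mitochondrial genome took 4.04% to 14.0% of the counts, the most in dCas9 replicate 2. This share was 7.15, 10.3 and 10.2% in untreated, 6.00, 4.04 and 6.32% in TALE and 6.15, 14.0 and 10.8% in dCas9 libraries, so every TALE library lay below every untreated one. The labels do not say whether the 3 samples of a group came from separate cultures, so p-values measure the spread between these samples, which may be technical. Bulk RNA cannot tell fewer cells of a kind from less RNA per cell.

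On GRCh37 the members lie apart from one another, on different chromosomes except for MNT and MLX. MAX, with 5 exons in its representative transcript, lies at chr14:65472892-65569413 (minus strand), MXD1 (6 exons) at chr2:70124820-70170077 (plus) and MXD3 (6 exons) at chr5:176728462-176739758 (minus). MXD4 (6 exons) lies at chr4:2249159-2263836 (minus), MXI1 (6 exons) at chr10:111967363-112047123 (plus) and MNT (6 exons) at chr17:2287367-2304398 (minus). MLX (8 exons) lies at chr17:40719090-40725257 (plus) and MGA (24 exons) at chr15:41913332-42065279 (plus). MGA shares its chromosome with the targeted gene and ends 2.94 Mb before it.

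The E-box core CACGTG, the site the network binds, was looked for in RefSeq promoters (GRCh38.p14, 250 bases before to 50 after each start). The core is its own reverse complement, so a search of one strand covers both. Promoters were found for 8 of the 9 genes, all but MYC, whose promoter was therefore not searched. Of 13 promoters in all, 3 (23.1%) held the core, against 7.26% of all 35116 RefSeq promoters. These shares were not compared by a test, and some genes had several promoters. The 3 windows are shown 5′ to 3′ on the gene's strand because they are the places where the network's own motif stands before its genes, with the core in capitals. That of MXD4 lay 238 bases before the start (chr4:2262322-2262359, minus strand), that of MNT 193 bases (chr17:2401228-2401273, minus strand) and that of MLX 50 bases (chr17:42567030-42567075, plus strand).
MXD4: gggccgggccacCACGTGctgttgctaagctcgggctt
MNT: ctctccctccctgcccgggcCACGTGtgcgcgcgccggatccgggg
MLX: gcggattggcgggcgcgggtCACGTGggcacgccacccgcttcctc
A match of these letters describes the sequence and is not a measured site.

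MYC, the activator of the network, was the most abundant of the 9 transcripts and among the steadiest. Its level was 382, 358 and 365 CPM in the untreated libraries, 357, 388 and 367 in the TALE libraries and 369, 333 and 406 in the dCas9 libraries, behind which stood 2898 to 5029 counts per library. The 3 groups overlapped fully, and both the lowest and the highest library belonged to dCas9. Group means were 368 ± 12.3 CPM (SD, n = 3) in untreated, 370.5 ± 15.7 (n = 3) in TALE and 369 ± 36.4 (n = 3) in dCas9 cells. MYC had a log2 fold change of 0.0091 (SE 0.12, 95% interval -0.25 to 0.26) for TALE against untreated and 0.0037 (SE 0.12, -0.25 to 0.26) for dCas9 against untreated. For all silenced libraries against untreated it was 0.0064 (SE 0.10), with a fold of 1.00 and a 95% interval of 0.862 to 1.17. Its sign turned under other scalings and filters, as a value this near 0 can. Over the 9 libraries MYC had a coefficient of variation of 5.62%, where the median gene of at least 10 CPM had 11.5%, and 3.51% of those 8655 genes varied less. Those genes reach down to 10 CPM and were not matched to the level of MYC, so counting noise differs between them and MYC.

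MAX, the partner without which MYC does not bind DNA, was measured at 42.6, 38.4 and 34.9 CPM in untreated, 44.6, 43.1 and 37.1 in TALE and 43.0, 45.5 and 41.3 in dCas9 libraries. All dCas9 libraries lay above the untreated mean, but the ranges overlapped. The log2 fold change was 0.10 (SE 0.12) for TALE and 0.16 (SE 0.12, 95% interval -0.09 to 0.41) for dCas9 against untreated. Counts were 288 to 559 per library, and exons of MAX share 822 bases with FNTB on the opposite strand.

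Among the antagonists, MXD1, which rises as blood cells mature and displaces MYC from MAX, was at 65.3, 59.1 and 58.2 CPM in untreated, 54.7, 56.7 and 54.0 in TALE and 57.7, 74.9 and 59.0 in dCas9 libraries. The 3 TALE libraries lay below every untreated and every dCas9 library, the 1 such separation among the 9 genes. Thus 1 of 9 members did not overlap for TALE against untreated, where 12.5% of all 13786 genes tested did not, and 1 of 9 for TALE against dCas9, where 9.38% did not. No member was free of overlap for dCas9 against untreated (11.6% of all genes) or for silenced against untreated (3.54%). The log2 fold change of MXD1 was -0.14 (SE 0.12, 95% interval -0.39 to 0.11) for TALE against untreated and -0.21 (SE 0.12, -0.46 to 0.04) for TALE against dCas9. The latter moved to -0.08 without dCas9 replicate 2, the library that held the high value, and MXD1 for dCas9 against untreated moved from 0.07 to -0.06 without it. That library also had the largest share of mitochondrial counts, whose part in the value was not tested. Exons of MXD1 share 237 bases with SNRNP27 on the same strand, which had 9497 counts over the 9 libraries.

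MXI1, also called MXD2, was at 36.2, 40.0 and 40.3 CPM in untreated, 30.8, 32.5 and 40.2 in TALE and 33.8, 38.1 and 35.7 in dCas9 libraries. All but TALE replicate 3 among the silenced libraries lay below the untreated mean of 38.9 ± 2.28 CPM (SD, n = 3), with overlap. Its log2 fold change was -0.17 (SE 0.12) for TALE and -0.11 (SE 0.13) for dCas9 against untreated, and -0.14 (SE 0.11, 95% interval -0.37 to 0.08) for all silenced libraries.

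MXD4, an antagonist found mostly in cells that leave the cycle, was at 8.20, 9.27 and 9.44 CPM in untreated, 7.55, 7.86 and 10.1 in TALE and 11.4, 9.01 and 13.3 in dCas9 libraries. All dCas9 libraries were above the untreated mean, and dCas9 replicate 2 fell within the untreated range. The log2 fold change was 0.33 (SE 0.19, 95% interval -0.06 to 0.72) for dCas9 against untreated, the highest of the 9 in that comparison. For TALE against dCas9 it was -0.40 (SE 0.18, -0.79 to -0.02), with an unadjusted p of 0.0418 and an adjusted p of 0.763 by edgeR's quasi-likelihood test. MXD4 was the only member with an unadjusted p under 0.05 in any of the 4 comparisons, and it failed the correction.

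MXD3, an antagonist linked to proliferating cells, was the least expressed member, at 2.62, 3.71 and 2.90 CPM in untreated, 2.65, 3.08 and 1.76 in TALE and 3.8, 3.00 and 2.68 in dCas9 libraries. These levels rest on 19 to 41 counts per library, and the groups overlapped. Its intervals were the widest of the 9, with a log2 fold change of -0.28 (SE 0.30, 95% interval -0.90 to 0.35) for TALE against untreated, so a fold as low as 0.535 lay within the interval. Exons of MXD3 share 1148 bases with PRELID1 on the opposite strand, which had 32601 counts over the 9 libraries, and 926 bases with RAB24 on the same strand. The use of strand in counting is not given in the sources used here, so reads from these genes cannot be told apart.

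MNT, the antagonist that most cell types express throughout the cycle, was at 32.6, 39.8 and 38.5 CPM in untreated, 35.2, 33.9 and 30.1 in TALE and 30.2, 35.4 and 38.2 in dCas9 libraries. The TALE libraries all lay below the untreated mean of 36.9 ± 3.86 CPM (SD, n = 3), but untreated replicate 1 was lower than 2 of them. Its log2 fold change was -0.16 (SE 0.13) for TALE and -0.09 (SE 0.13) for dCas9 against untreated.

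MLX, the MAX-like partner of the Mondo factors, was at 65.5, 70.4 and 67.2 CPM in untreated, 57.0, 62.1 and 70.9 in TALE and 69.1, 59.4 and 62.5 in dCas9 libraries. TALE replicate 3 was the highest and TALE replicate 1 the lowest of all 9, so the groups overlapped. Its log2 fold changes were -0.10 (SE 0.11) for TALE and -0.09 (SE 0.11) for dCas9 against untreated, and -0.0080 (SE 0.11, 95% interval -0.25 to 0.23) between the 2 treatments. Exons of MLX share 775 bases with PSMC3IP on the opposite strand.

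MGA, the MAX partner with a T-box, had the largest spread among members above 10 CPM. It stood at 133, 139 and 132 CPM in untreated, 182, 147 and 117 in TALE and 123, 163 and 141 in dCas9 libraries. The untreated libraries lay close together, and the range of each silenced group enclosed them. Log2 fold changes were 0.14 (SE 0.15, 95% interval -0.17 to 0.45) for TALE and 0.08 (SE 0.15, -0.23 to 0.39) for dCas9 against untreated. The former was -0.03 without TALE replicate 1 and 0.29 without TALE replicate 3. MGA is a long transcript, and its deviations from its mean over the 9 libraries were set beside the median deviation of 839 genes whose longest transcript has at least 8000 bases. On the log2 scale MGA deviated by 0.37 in TALE replicate 1, where the long genes deviated by 0.17, and by -0.27 in TALE replicate 3, where they deviated by -0.19. In dCas9 replicates 1 and 2 MGA deviated by -0.20 and 0.21, and the long genes by -0.12 and 0.09. The untreated libraries had MGA at -0.076, -0.022 and -0.091 and the long genes at 0.0013, 0.0013 and -0.015. TALE replicate 2 had 0.066 for MGA and 0.042 for the long genes, and dCas9 replicate 3 had 0.0086 and 0.040. The part of transcript length in the spread of MGA was not tested.

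**Figure D1:**
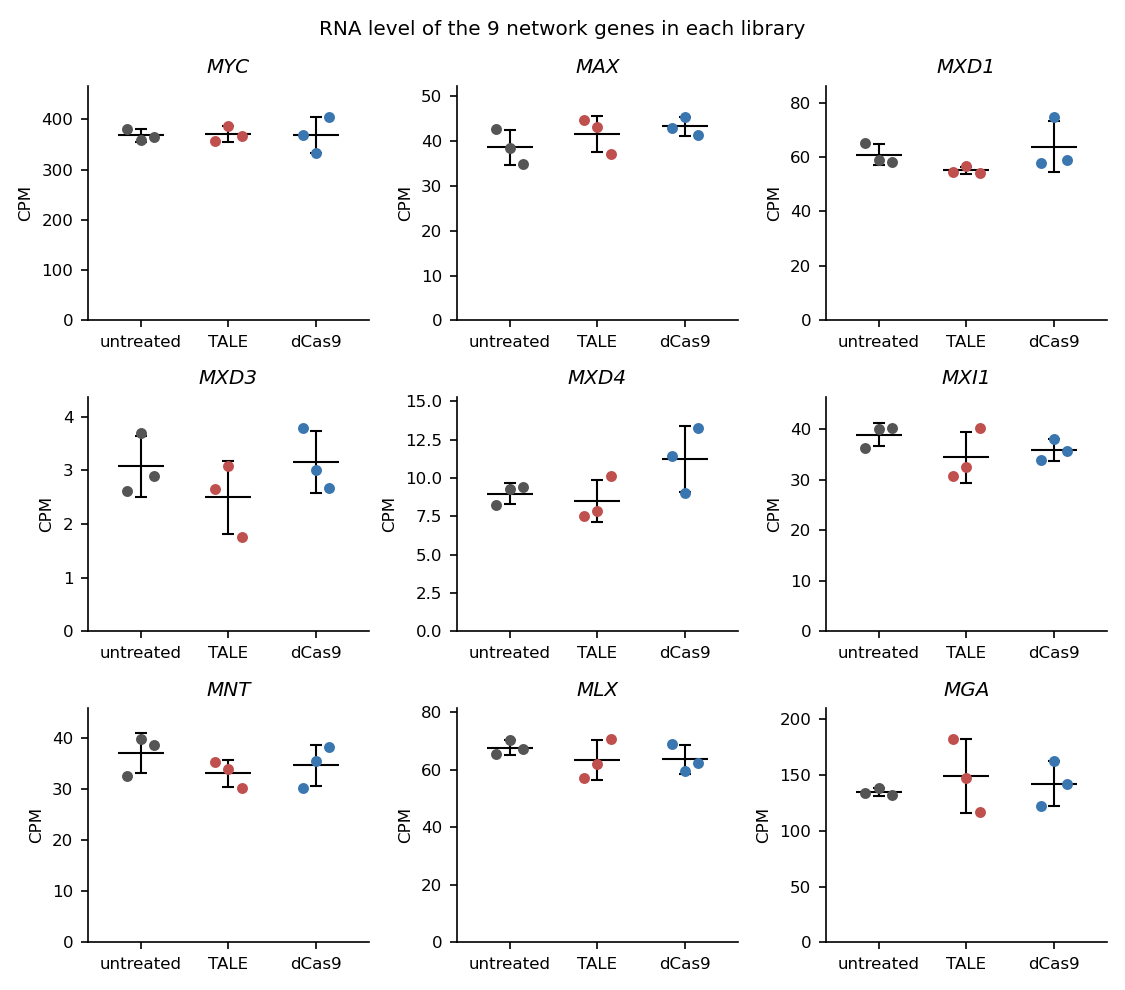
RNA level in CPM (vertical axis, from 0) of each of the 9 genes in the 3 untreated, 3 TALE and 3 dCas9 libraries (points), with group means (wide bars) and SD (error bars). The groups overlap in every panel except MXD1, where the TALE libraries at 54.0 to 56.7 CPM lie below the others.

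None of the 9 genes passed the test across all genes in any comparison. By edgeR's quasi-likelihood test with Benjamini-Hochberg adjustment, 0 of 9 were called for TALE against untreated, where 0.0218% of 13786 genes tested were called, and 0 of 9 for dCas9 against untreated, where 0.029% were called. Between the treatments, 0 of 9 were called and 0% of all genes, and for silenced against untreated 0 of 9 and 0.0363%. Such backgrounds are so low that a count of 0 among 9 genes is near them. DESeq2 also called 0 of 9 in each comparison. Members with an unadjusted p under 0.05 numbered 0, 0, 1 and 0 in the order above, where all genes numbered 986, 818, 880 and 876. The lowest adjusted p of a member by edgeR was 0.763. Exact two-sided permutation tests gave p of 0.1 or more in every comparison, and at least 0.831 after adjustment over the 36 tests; 0.1 is the smallest p that 3 libraries against 3 can give, and 0.0119 the smallest for 6 against 3.

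Log2 fold changes of the 9 genes ran from -0.28 to 0.14 for TALE against untreated, with a median of -0.10, and from -0.11 to 0.33 for dCas9 against untreated, with a median of 0.05. The medians of all genes tested were 0.0024 and -0.0031. For TALE against untreated 3 members were higher and 6 lower, and for dCas9 against untreated 6 were higher and 3 lower. Between the treatments the range was -0.40 to 0.07, with 7 of 9 lower in TALE. These comparisons share libraries: both treatments were set against the same 3 untreated libraries. The widest 95% interval bounds over the 4 comparisons were folds of 0.520 and 1.65, both of the weakly expressed MXD3 and MXD4.

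**Figure D2:**
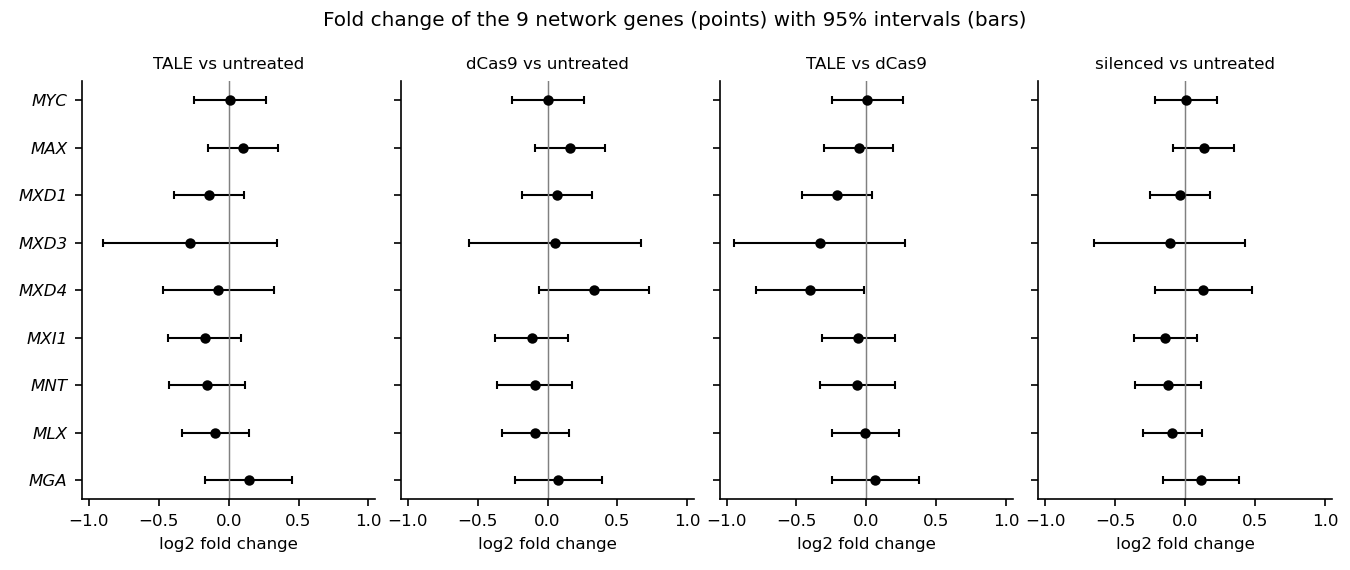
Log2 fold change (horizontal axis) of each gene in the 4 comparisons, as edgeR's estimate (points) with a 95% interval worked out from its test (bars). The vertical line marks 0. Every interval crosses 0 except that of MXD4 for TALE against dCas9, at -0.79 to -0.02, and the intervals of MXD3 are the widest.

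MYC lies on chromosome 8, where its exons share 194 bases with CASC11 on the opposite strand, a gene with 24 counts over the 9 libraries. Levels were compared between genes only per length of exon, as CPM per kb of the gene's merged exons. By its mean over the 9 libraries MYC was the 640th highest of 11279 genes with a length. In untreated cells MYC stood at 60.3 ± 2.01 (SD, n = 3) CPM per kb, and the next member, MLX, at 15.9 ± 0.595. MXD1 followed at 9.58 ± 0.608. MGA at 6.71 ± 0.171, MXI1 at 6.58 ± 0.386 and MAX at 6.17 ± 0.619 CPM per kb did not differ from one another beyond their ranges. MNT was lower at 4.25 ± 0.443, MXD4 at 1.31 ± 0.0974 and MXD3 at 0.649 ± 0.119 CPM per kb, each without overlap with its neighbour in this order. Divided by the longest annotated transcript instead, MYC, at 98.95 CPM per kb, and MLX, at 26.2, stayed the highest and MXD4 and MXD3 the lowest. The genes between changed order, with MAX at 12.2, MXI1 at 11.2, MXD1 at 10.9 and MGA at 9.24 CPM per kb. MYC thus exceeded its partner MAX on either measure, as a level of RNA and not of protein.

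**Figure D3:**
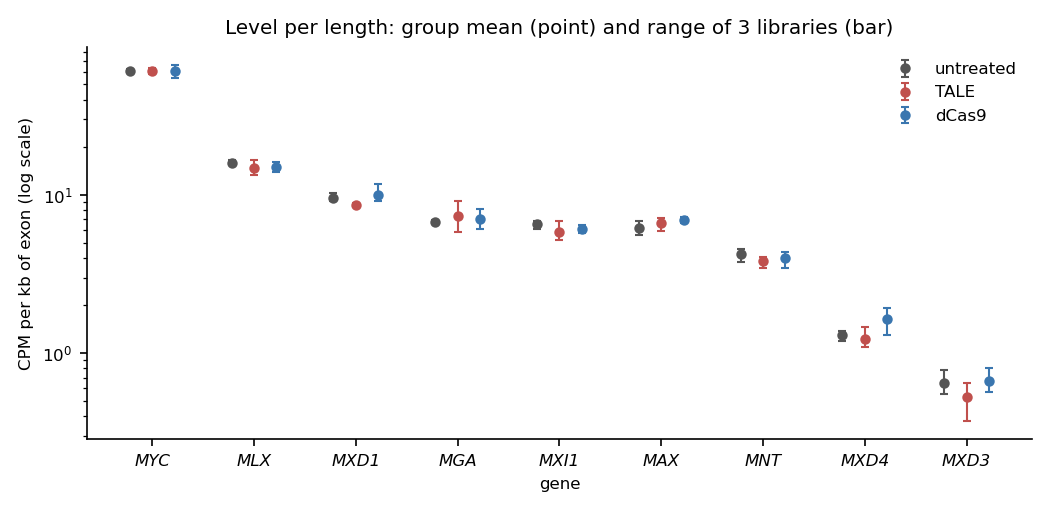
Level per length in CPM per kb of exon (vertical axis, logarithmic) for each gene, ordered by its untreated mean, with the group mean (points) and the range of 3 libraries (bars). MYC lies near 60.3 CPM per kb in untreated cells and MXD3 at 0.649.

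The summed level of the 5 antagonists MXD1, MXD3, MXD4, MXI1 and MNT, as a percent of MYC on the scale of CPM per kb, was 35.0, 38.9 and 37.5% in untreated, 33.4, 31.7 and 34.3% in TALE and 34.4, 44.5 and 33.5% in dCas9 libraries. All TALE libraries were under all untreated ones, while dCas9 had 2 libraries below and 1 above all untreated ones. Group means were 37.1% ± 1.94 (SD, n = 3), 33.1% ± 1.32 and 37.4% ± 6.14. The value of 44.5% came from dCas9 replicate 2, in which MXD1 was highest and MYC lowest. MAX stood at 10.2% ± 0.807 of MYC in untreated, 11.0% ± 1.17 in TALE and 11.5% ± 1.70 in dCas9 cells. No test was made of these ratios, since they are sums over the members.

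The genes whose log2 CPM followed MYC most closely over the 9 libraries, among 8654 other genes of at least 10 CPM, were CCDC22 (Pearson's r = 0.962), SPC24 (0.933) and ACD (0.931). Those most like MAX were H2AFV (0.963), ZNF91 (0.939) and PPM1B (0.939). The 9 points share library depth and scaling, and the values describe these libraries only, with no test. MYC and MAX themselves gave r = -0.12.

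The other genes of the pathway were taken from 8 lists of 102 genes, of which 99 were tested. By edgeR 0 of 99 were called in each of the 4 comparisons, and by DESeq2 0 as well. Unadjusted p-values under 0.05 were reached by 4 genes with higher and 1 with lower values for TALE against untreated, and by 1 and 1 for dCas9 against untreated. Between the treatments 3 genes were higher and 2 lower in TALE at that level, and for silenced against untreated 2 and 1. These are 5, 2, 5 and 3 of 99 genes, where 7.15%, 5.93%, 6.38% and 6.35% of all genes reached that level. Of all 99, 73 had a higher and 26 a lower estimate for TALE against untreated, 60 and 39 for dCas9 against untreated and 67 and 32 for TALE against dCas9, where 50.6%, 49.2% and 50.4% of all genes tested were higher. For TALE against untreated, groups did not overlap at 15 of 99 genes (15.15%), 13 higher and 2 lower, where 12.5% of all genes did not. For dCas9 against untreated it was 7 of 99 (7.07%, against 11.6% of all genes), and for TALE against dCas9 11 of 99 (11.1%, against 9.38%). For silenced against untreated it was 3 of 99 (3.03%), all 3 higher, near the 3.54% of all genes. MYCN, with 0 or 1 counts in every library, FBXO32 and CDKN2B were too low to test. MYCL, the other MYC gene measured, was at 5.88 to 10.3 CPM over the 9 libraries, and gave -0.12 (SE 0.17) on the log2 scale for silenced against untreated.

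Genes that MYC is known to activate made the largest list. Of 40, all tested, 32 had a higher and 8 a lower estimate in TALE than in untreated cells, with a median log2 fold change of 0.16 against 0.0024 over all genes. For dCas9 against untreated 24 were higher and 16 lower, with a median of 0.02, and for TALE against dCas9 34 and 6, with a median of 0.16. The median for TALE against untreated was 0.11 without TALE replicate 1, and that for TALE against dCas9 was 0.08 without it. The median for dCas9 turned to -0.01 without dCas9 replicate 1 and to -0.03 without untreated replicate 3. More genes were higher than lower for TALE against untreated in other lists too, 12 and 2 of the genes of MYC protein turnover and 11 and 2 of the SIN3-HDAC cofactors, and no difference between lists was tested. The mitochondrial share of counts was lower in every TALE than in every untreated library. Without the genes of the mitochondrial genome the medians against untreated were 0.16 in TALE and 0.02 in dCas9 cells, and that between the treatments was 0.15. With upper-quartile factors the median was 0.14 for TALE against untreated, with 29 of 40 genes higher, and 0.14 for TALE against dCas9. The part of the mitochondrial share in these medians was not tested. No gene of the list was called in these comparisons by edgeR or DESeq2, and 3, 0 and 2 of its genes had an unadjusted p under 0.05, all with higher values. RRS1, a ribosome assembly factor, was at 39.5, 30.9 and 31.7 CPM in untreated, 61.9, 46.9 and 42.4 in TALE and 38.6, 48.2 and 40.4 in dCas9 libraries. The TALE libraries lay above every untreated library, and dCas9 replicate 1 fell within the untreated range. Its log2 fold change was 0.56 (SE 0.15, adjusted p = 0.383 by edgeR) for TALE and 0.44 (SE 0.13, adjusted p = 0.443) for silenced against untreated. With no filter on low counts the former was 0.59 with an adjusted p of 0.0271, the 1 setting tried under which a gene of the lists was called. TFB2M, a mitochondrial transcription factor, was at 92.3 to 102 CPM in untreated and 64.4 to 102 CPM in silenced libraries, and gave -0.25 (SE 0.13) on the log2 scale for silenced against untreated.

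Of 5 genes that MYC is known to repress, 4 were tested, 2 with a higher and 2 with a lower estimate for silenced against untreated. CDKN1B, the cell cycle inhibitor p27, gave -0.11 (SE 0.11), and NDRG1, a stress response gene at 0.556 to 3.01 CPM, gave 0.32 (SE 0.40) on the log2 scale.

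No cofactor was called in any comparison by edgeR or DESeq2. Of 13 activating cofactors 9 had a higher and 4 a lower estimate for silenced against untreated, with a median log2 fold change of 0.02. Among them CCNT1 and CDK9, the subunits of the elongation factor P-TEFb, both gave 0.17 (SE 0.09 and 0.11). CCNT1 was at 67.8 to 72.7 CPM in untreated and 73.7 to 84.6 in silenced libraries, with no overlap, in the comparison by which it was chosen for naming. Of 13 SIN3-HDAC cofactors, which the antagonists bring to DNA, 10 were higher and 3 lower, with a median of 0.08. BRMS1, a subunit of that corepressor, was at 19.1, 16.2 and 17.4 CPM in untreated and 19.4 to 25.9 in the 6 silenced libraries. The 2 ranges did not overlap, in the comparison that also chose it, and its log2 fold change was 0.33 (SE 0.13, unadjusted p 0.0197, adjusted p 0.659 by edgeR). SUDS3, another subunit, gave 0.18 (SE 0.11).

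Of the 10 partners of MGA in its Polycomb complex, 7 were higher and 3 lower for silenced against untreated, with a median log2 fold change of 0.02. PCGF6, the RING subunit that marks that complex, gave 0.12 (SE 0.12), and CBX1, a heterochromatin protein, 0.11 (SE 0.10). Of 15 genes that control the turnover of MYC protein, 14 were tested, with 9 higher and 5 lower for silenced against untreated, 12 and 2 for TALE against dCas9, and 7 and 7 for dCas9 against untreated. FBXW7, the ubiquitin ligase subunit that marks MYC for decay, gave 0.12 (SE 0.13), and STUB1, another ligase, 0.11 (SE 0.10).

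Of the 99 list genes, one of the Mondo branch had the lowest unadjusted p in the comparison between treatments. MLXIPL, the partner of MLX that senses glucose in liver, was at 4.36, 5.81 and 8.59 CPM in untreated, 3.23, 3.16 and 4.72 in TALE and 6.12, 6.52 and 8.03 in dCas9 libraries. The TALE libraries lay below every dCas9 library, and TALE replicate 3 fell within the untreated range. The log2 fold change was -0.90 (SE 0.26, unadjusted p 0.00296, adjusted p 0.530 by edgeR) for TALE against dCas9 and -0.74 (SE 0.27, adjusted p 0.585) for TALE against untreated. MLXIP, the other Mondo factor, named after its values were seen, was at 191, 223.8 and 219.6 CPM in untreated, 190.4, 186 and 167 in TALE and 181, 229 and 268 in dCas9 libraries. Its ranges overlapped, with a log2 fold change of -0.32 (SE 0.14, adjusted p 0.748 by edgeR) for TALE against dCas9. Both direct targets of the Mondo-MLX dimers on the list had lower estimates in silenced cells. ARRDC4 stood at 33.3 to 41.5 CPM in untreated and 24.6 to 34.6 CPM in silenced libraries, with a log2 fold change of -0.29 (SE 0.11, adjusted p 0.644 by edgeR). TXNIP, a brake on glucose uptake, stood at 242 to 269 and 179 to 273 CPM and gave -0.12 (SE 0.11). By treatment, ARRDC4 gave -0.21 (SE 0.13) in TALE and -0.37 (SE 0.13, unadjusted p 0.0111, adjusted p 0.602 by edgeR) in dCas9 against untreated. Its dCas9 libraries, at 31.2, 30.95 and 24.6 CPM, lay below every untreated one, while TALE replicate 2 fell within the untreated range. Of all genes, 11.6% did not overlap for dCas9 against untreated. TXNIP gave -0.21 in TALE and -0.03 in dCas9 against untreated. For dCas9 against untreated, MLXIPL gave 0.16 (SE 0.25) and MLXIP 0.10 (SE 0.14). For TALE against dCas9, where both factors had lower estimates, ARRDC4 gave 0.16 and TXNIP -0.19. Whether the targets follow the factors was not tested.

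**Figure D4:**
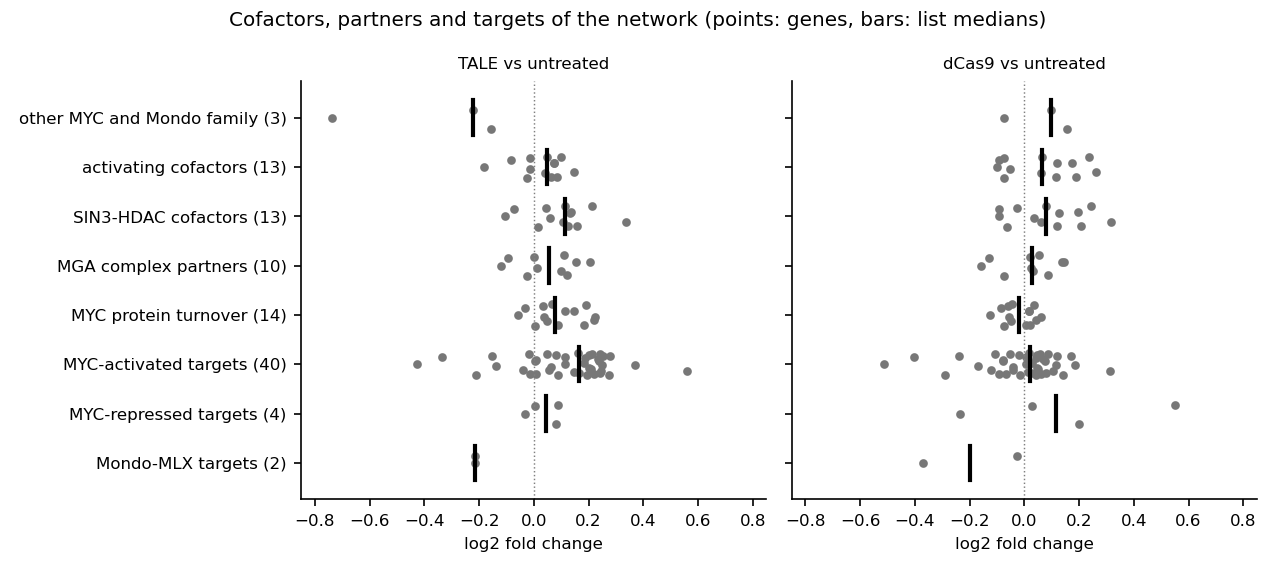
Log2 fold change (horizontal axis) against untreated of the 99 tested genes in 8 lists (points), for TALE (left) and dCas9 (right), with list medians (bars) and the number of genes tested in parentheses. The MYC-activated targets lie mostly to the right of 0 in TALE, with a median of 0.16, and around 0 in dCas9, with a median of 0.02.

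MeDIP regions were assigned to a gene from 2000 bases before the first base of its annotation to its end. The 9 genes had 94 such regions, of which 62 had enough counts to be tested. Regions were spread as the genes are long: MGA had 32, MAX 27, MXI1 16, MXD1 7, MXD4 4, MXD3 3, MNT and MLX 2 each and MYC 1. By edgeR none of the 62 (0 of 62) passed for TALE against untreated (0% of all 105652 regions tested) and 0 of 62 for dCas9 against untreated (0.000947%). Between the treatments 0 of 62 were called (0.000947%), and for silenced against untreated 0 of 62 (0%). DESeq2 called 0 in each. Regions with an unadjusted p under 0.05 numbered 3, 4, 4 and 2, or 4.84%, 6.45%, 6.45% and 3.23%, where all regions gave 4.74%, 4.69%, 4.47% and 4.88%. The median log2 fold change of the 62 regions was 0.0065 for TALE and -0.01 for dCas9 against untreated.

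Summed over its regions, the MeDIP signal of MGA was 172 ± 15.5 CPM (SD, n = 3) in untreated, 186 ± 4.96 in TALE and 179.7 ± 12.7 in dCas9 libraries, over 13932 bases or 9.05% of its window. MAX had 89.2 ± 3.86, 89.9 ± 6.52 and 84.5 ± 7.61 CPM over 7505 bases. MXD1 had 52.2 ± 5.70, 48.8 ± 3.78 and 50.8 ± 2.20 CPM over 2496 bases. In all of these the groups overlapped. The single region of MYC, in an exon, held 5 to 7 counts in untreated, 3 to 8 in TALE and 3 to 14 in dCas9 libraries, too few to test. In the authors' peak lists, called per sample, MGA held 16 to 22 peaks per library, MAX 12 to 17 and MYC 0 or 1.

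**Figure D5:**
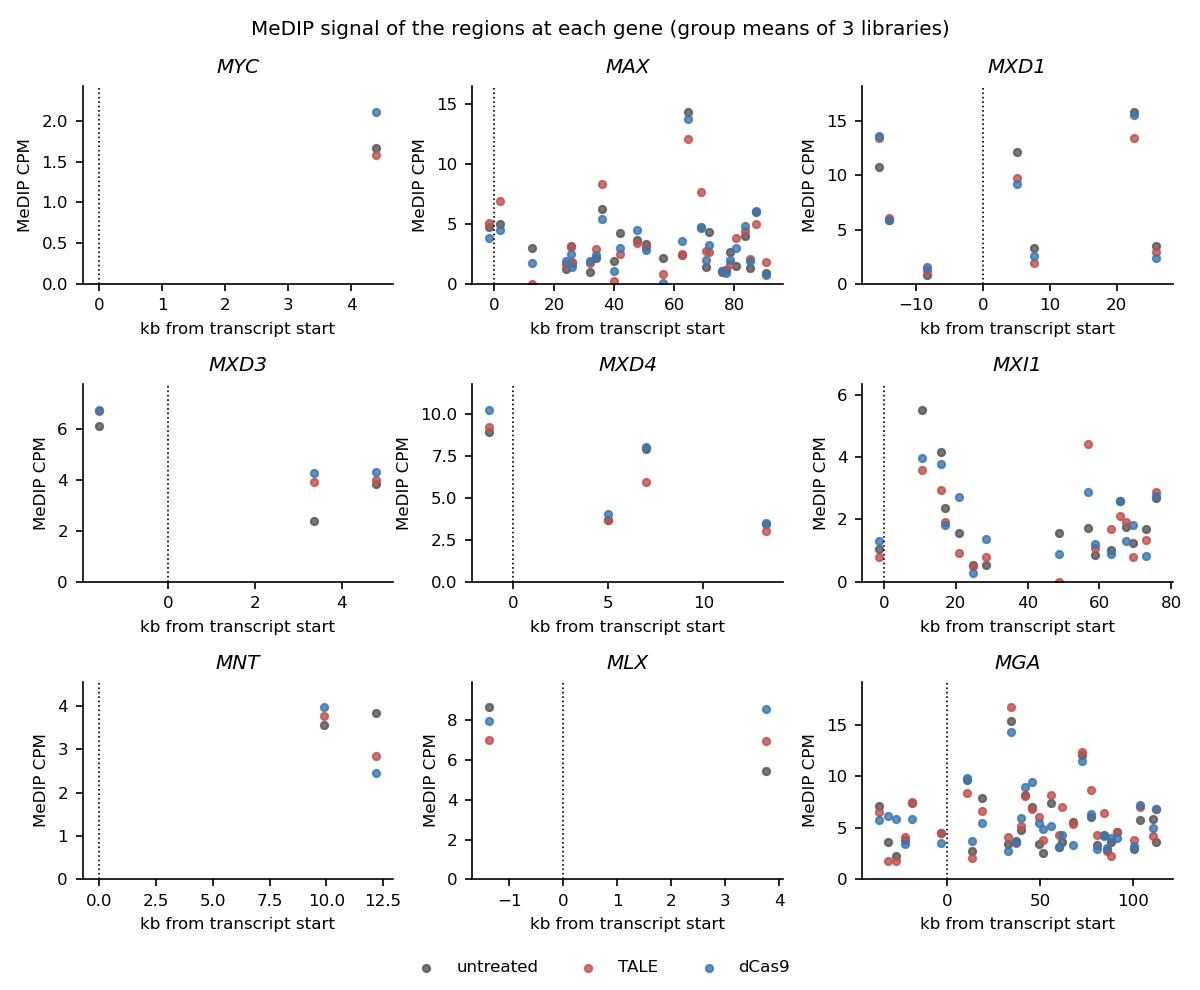
MeDIP level in CPM (vertical axis, from 0) of each region against the distance of its centre from the start of the gene's representative transcript in kb (horizontal axis, positive in the direction of transcription), as means of 3 libraries in each group (points). The dotted line marks the start, which lies outside the regions of all 9 genes, and MGA and MAX carry 32 and 27 regions.

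Distances below are from the start of the representative transcript, which in MGA and MXD1 lies inside the gene, at position 41952603 on chromosome 15 and 70142241 on chromosome 2. None of these 9 starts lay within a MeDIP region, and of the same starts of 19881 protein-coding genes 242 (1.22%) did. Starts of other annotated transcripts lay within 1 region of MXD4 and 1 of MXI1. Other coding starts lay nearer to a region than the representative one in several members. They were 470 bases from a region in MXI1, 550 in MGA, 623 in MXD3, 1062 in MLX, 1288 in MAX and 1729 in MXD1. Within 2000 bases of a region lay the representative starts of 5 of the 9, MAX, MXD3, MXD4, MXI1 and MLX, where 42.9% of coding starts did. Their nearest regions were all upstream, at 1466 bases for MAX, 1482 for MXD3, 1116 for MXD4, 1350 for MXI1 and 1090 for MLX. MGA and MNT had theirs 2844 and 3137 bases upstream, that of MGA in an intron, MYC and MXD1 4245 and 4885 bases downstream. A start outside every region is no measure of its methylation.

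The 250 bases before the representative start of MXD4, chr4:2263837-2264086 (minus strand, GRCh37), are printed because no MeDIP region covered them and they overlap no annotated exon. They run 5′ to 3′ on the gene's strand, with each CG, the site of methylation, in capitals.
MXD4 start: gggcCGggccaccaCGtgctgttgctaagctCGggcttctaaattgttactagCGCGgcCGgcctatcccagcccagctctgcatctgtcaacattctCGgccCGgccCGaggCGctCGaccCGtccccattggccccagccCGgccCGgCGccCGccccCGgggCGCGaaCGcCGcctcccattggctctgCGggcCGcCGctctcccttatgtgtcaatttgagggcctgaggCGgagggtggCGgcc
This stretch held 26 CG sites, or 10.4 per 100 bases. Over the 9 genes the 250 bases before the start held 4.8 to 14.0 CG per 100 bases, while the median of 87 member regions of at least 100 bases was 3.15 and that of all 187694 such regions 2.82. How reads with several equal placements were treated is not given in the sources used here.

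The regions nearest the starts gave no call. The one before MXD4 held 36, 24 and 32 counts in untreated, 23, 36 and 27 in TALE and 46, 40 and 17 in dCas9 libraries, and its log2 fold change was 0.10 (SE 0.26, 95% interval -0.41 to 0.62) for silenced against untreated. That before MXD3 held 25, 17 and 21, then 21, 17 and 26, then 22, 33 and 15 counts in the same order, with a log2 fold change of 0.14 (SE 0.29, -0.44 to 0.71). That before MAX held 8 to 25 counts and gave -0.08 (SE 0.34, -0.76 to 0.60). The groups overlapped at all 3. That before MLX, chr17:40717447-40718028, gave -0.19 (SE 0.28), the one before MNT -0.40 (SE 0.30), that of MGA -0.18 (SE 0.38) and that of MXD1 -0.34 (SE 0.23) on the log2 scale. That of MXD1 was at 14.1, 15.7 and 12.8 CPM in untreated, 11.5, 12.6 and 10.2 in TALE and 11.9, 12.7 and 7.77 in dCas9 libraries. All 6 silenced libraries lay below every untreated one, at 1 of the 7 regions, while 3 of the 62 regions (4.84%) and 2.45% of all regions tested did not overlap in that comparison. The region before MXI1 held 1 to 10 counts and was not tested. Over the 7 regions tested the 95% intervals ran from -1.0 to 0.71 on the log2 scale.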

How the data were processed

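RNA-seq and MeDIP-seq samples were grouped by their titles, 3 per group. Both deposited tables hold raw counts, for RNA by gene symbol and for MeDIP by region. Per the submitters' processing notes the tools were STAR 2.3.0 for RNA, and BWA 0.7.5, Picard, MACS2 and bedtools for MeDIP, on hg19. RNA amplification used a kit meant for degraded RNA, and MeDIP libraries were pooled ahead of capture, per the labels' protocols. The counter, its annotation, its use of strand and its rule for reads with several placements are not given in the sources used here. Each MeDIP sample has a deposited peak list of the authors with a score, a signal as fold enrichment (a ratio) and −log10 of p and q per peak, of which only positions were used.

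The quasi-likelihood test of edgeR 4.0.16 (R 4.3.3) was run on the counts, assay by assay, with TMM factors, 1 model of group means over 9 libraries and a filterByExpr minimum of 10 counts. This left 13786 genes, all 9 members among them, and 105652 of 198884 regions. Benjamini-Hochberg adjustment ran over all features, with calls under 0.05. Log2 fold changes use a prior count of 0.125. CPM use TMM-scaled counts of the tested features, except for the summed MeDIP signal and the signal plotted by distance, which are scaled to all counts in the library. Single genes were also compared by exact permutation tests of log2(CPM + 0.5). DESeq2 1.42.0, other scalings and filters, a replicate block and leaving out each library were alternatives. Lengths, starts and exons came from GENCODE 44 on GRCh37, the sequence of hg19. The edgeR fit of each assay was tried on simulated counts with known fold changes, for TALE against untreated only. Same-numbered libraries did not deviate together, so the numbers were not used to pair samples.

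The members and gene lists were chosen with earlier results of these data known. The text names all 9 members, the 2 genes of each list with the smallest unadjusted p for silenced against untreated, and the 3 genes most like MYC and MAX. Depth sets the precision: at 8460076 to 12050554 RNA counts per library, 3 counts are 0.249 to 0.355 CPM. A few sequences and 1 marker are not reported here.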

Additional observations from a re-analysis of the deposited data

How the results depend on the processing

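For the 36 log2 fold changes of the 9 genes (4 comparisons each), 603 values were computed under other settings. Of these, 566 kept their direction and 37 turned it, at 16 of the 36 changes and with sizes of at most 0.106. None passed the threshold, and the lowest adjusted p was 0.259. The cause of the changes listed here was not tested, beyond the fewer libraries or genes a setting leaves. Turned values of MYC were -0.0038 with at least 10 counts in every library and -0.017 with upper-quartile factors for TALE against untreated, and -0.0014 with only the compared libraries for dCas9 against untreated. Between the treatments MYC gave -0.0055, -0.019 and, without mitochondrial genes, -0.0050, and for silenced against untreated -0.0011 and -0.0073. MLX gave 0.011 for TALE against dCas9 with no filter. Leaving out each library in turn, MYC ran from -0.023 to 0.038 for TALE against untreated, -0.068 to 0.073 for dCas9 against untreated, -0.062 to 0.075 for TALE against dCas9 and -0.031 to 0.041 for silenced against untreated. Between the treatments, MAX ran from -0.11 to 0.020, MXI1 from -0.18 to 0.018, MNT from -0.15 to 0.0078, MLX from -0.094 to 0.063 and MGA from -0.11 to 0.21. For dCas9 against untreated, MXD1 ran from -0.062 to 0.13, MXD3 from -0.10 to 0.20 and MGA from -0.029 to 0.17, and for TALE against untreated MXD4 from -0.21 to 0.0026 and MGA from -0.028 to 0.29. For silenced against untreated, MXD1 ran from -0.10 to 0.018, MXD3 from -0.23 to 0.037, MLXIPL from -0.51 to 0.0031 and NDRG1 from -0.013 to 0.61. The nearest MeDIP regions of MAX ran from -0.15 to 0.028, of MXD4 from -0.091 to 0.23, of MLX from -0.41 to 0.056 and of MGA from -0.57 to 0.24. The median of the MYC-activated targets for dCas9 ran from -0.028 to 0.043; these medians were read by setting after seeing the data. Counts over all genes moved more. DESeq2 called 9, 29 and 36 genes for TALE, dCas9 and silenced against untreated where edgeR called 3, 4 and 5. With at least 10 counts in every library edgeR called 1, 2 and 3. With no filter it called 74, 89 and 79, and 77 for TALE against dCas9, with 1 gene of the lists, RRS1, among the 74. With only the compared libraries 8 were called for dCas9 against untreated. Without 1 library, 2 to 16 genes were called for TALE against untreated (16 without TALE replicate 3) and 2 to 33 for silenced (33 without TALE replicate 3, 11 without dCas9 replicate 1, 3 and 2 without untreated replicates 1 and 3). For dCas9 against untreated it was 2 to 10, with 10, 7 and 8 without TALE replicates 3 and 1 and dCas9 replicate 1, and 2 without dCas9 replicates 2 or 3 or untreated replicates 2 or 3. For TALE against dCas9 it was 0 to 21, with 21 without dCas9 replicate 1. With the replicate number as a replicate block, 3 genes were called for TALE, 2 for dCas9 and 4 for silenced against untreated and 0 between the treatments, with 0 members. Same-numbered RNA libraries correlated at -0.23 to 0.10 in their deviations from the group means. Divided by the longest transcript, the antagonists' percent of MYC was 33.5% in untreated and 29.8% in TALE cells. Calls of members and member regions were 0 under each alternative run.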

Other observations

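Some MeDIP regions in introns of the network genes stood out by their values and were chosen after those were seen. In MGA, which shares its chromosome with the targeted gene, 2 neighbouring intronic regions had lower estimates in TALE than in dCas9 cells, and neither passed the test. Their centres lay at -31727 and -27327 bases from the representative start, so both were upstream of it. The one at chr15:41920523-41921230 held 17, 7 and 15 counts in untreated, 4, 4 and 11 in TALE and 17, 27 and 18 in dCas9 libraries, and its log2 fold change for TALE against dCas9 was -1.66 (SE 0.46, unadjusted p 0.000533 and adjusted p 0.9997 by edgeR). Leaving out each library in turn it ran from -2.04 to -1.48. The one at chr15:41925086-41925466 held 10, 2 and 13, then 2, 10 and 5, then 33, 12 and 10 counts, with a log2 fold change of -1.67 (SE 0.56, adjusted p 0.9997 by edgeR), which ran from -2.44 to -0.81 without 1 library. Per library size the TALE and dCas9 libraries overlapped at the latter region, and the highest count was that of dCas9 replicate 1.

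In an intron of MAX, the region at chr14:65556388-65556686 held 8, 11 and 11 counts in the untreated libraries, 0 in all 3 TALE libraries and 14, 1 and 1 in the dCas9 libraries. It held 2 CG in 299 bases, or 0.669 per 100 bases, where the median of 87 member regions of at least 100 bases was 3.15. It fell under the filter on low counts. Without that filter edgeR gave an unadjusted p of 4.52e-05 for TALE against untreated and an adjusted p of 1. A count of 0 allows up to 3 counts per library. A region in an intron of MXI1, chr10:112016088-112016387, also held 0 counts in all 3 TALE libraries. It held 0, 13 and 0 counts in the untreated and 4, 1 and 3 in the dCas9 libraries. How many of all regions held 0 counts throughout a group was not counted.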
